A study of Mus musculus with 407 samples.

Results

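The NF-κB transcription factors, their inhibitors and Bcl3 were followed in 4 muscles of ageing mice. The 10 genes were chosen by name and are Nfkb1, Nfkb2, Rel, Rela, Relb, Nfkbia, Nfkbie, Bcl3, Nfkbiz and Tnfaip3. All 10 were found, each on a single row, among the 24458 gene symbols in the count tables, and all 10 passed the low-count filter in each of the muscle and sex fits.

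RNA-seq was performed on whole gastrocnemius, tibialis anterior, soleus and diaphragm of untreated male and female C57BL/6J mice at 6 ages, which were 6 and 12 months and then 18, 21, 24 and 27 months. The 407 libraries formed 48 groups by sex, muscle and age, with 6 to 10 libraries in each, and the 6-month groups served as the young reference. No transgene or treatment was described, and the mice were purchased at different ages and housed for some weeks before collection. Each age had a single collection day, so age and day cannot be told apart, and no label ties the muscles of a mouse to each other. Because whole muscle was sequenced, fewer cells of a type and less RNA per cell cannot be told apart.

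NF-κB is a dimer of Rel-family proteins that inhibitor proteins of the IκB family hold in the cytoplasm until a cytokine or microbial signal leads to their destruction. In the canonical route the freed dimers are mainly those of RelA and the product of Nfkb1, while in the non-canonical route the Nfkb2 precursor is processed and pairs with RelB. Several inhibitor genes are themselves NF-κB targets, which makes the response self-limiting, and in muscle the pathway is known for its part in inflammation and in wasting.

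The promoters of Nfkb2, Bcl3 and Nfkbia are shown because the results below turn on these genes. Nfkb2 rose with age in some muscles, Bcl3 did so mainly in males, and Nfkbia did not pass the test in any muscle. Each promoter runs from 250 bases before to 50 bases after a RefSeq start site (GRCm38.p6, the mm10 build). It is written 5′ to 3′ on the strand of the gene. Capitals mark matches, on either strand, to the κB consensus, the decamer bound by NF-κB dimers. For Nfkb2, 2 of its annotated start sites are shown.
Nfkb2, chr19:46304487-46304786, plus strand: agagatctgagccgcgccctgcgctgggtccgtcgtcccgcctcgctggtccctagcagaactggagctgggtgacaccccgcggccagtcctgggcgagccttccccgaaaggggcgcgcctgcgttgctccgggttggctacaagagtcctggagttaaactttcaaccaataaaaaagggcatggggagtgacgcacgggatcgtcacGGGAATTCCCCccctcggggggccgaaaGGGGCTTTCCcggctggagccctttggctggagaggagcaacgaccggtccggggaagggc
Nfkb2, chr19:46305445-46305744, plus strand: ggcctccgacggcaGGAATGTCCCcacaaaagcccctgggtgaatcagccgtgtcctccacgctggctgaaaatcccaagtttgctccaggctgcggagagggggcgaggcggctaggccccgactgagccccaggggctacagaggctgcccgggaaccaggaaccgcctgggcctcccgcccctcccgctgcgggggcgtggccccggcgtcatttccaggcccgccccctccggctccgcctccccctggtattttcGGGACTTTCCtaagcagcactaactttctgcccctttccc
Bcl3, chr7:19822706-19823005, minus strand: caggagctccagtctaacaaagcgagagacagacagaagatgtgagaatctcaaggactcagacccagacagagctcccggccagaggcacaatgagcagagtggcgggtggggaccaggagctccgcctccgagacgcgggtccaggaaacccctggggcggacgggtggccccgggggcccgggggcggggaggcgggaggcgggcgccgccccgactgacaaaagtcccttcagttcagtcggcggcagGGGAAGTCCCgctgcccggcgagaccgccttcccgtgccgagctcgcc
Nfkbia, chr12:55492598-55492897, minus strand: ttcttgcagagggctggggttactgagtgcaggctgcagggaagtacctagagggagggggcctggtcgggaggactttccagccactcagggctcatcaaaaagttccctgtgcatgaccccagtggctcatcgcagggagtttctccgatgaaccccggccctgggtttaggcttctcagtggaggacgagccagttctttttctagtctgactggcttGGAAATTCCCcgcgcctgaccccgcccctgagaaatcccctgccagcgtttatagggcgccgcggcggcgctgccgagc

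Of the 7 members with a promoter entry, 6 held a κB match in at least 1 window, against 9.55% of the 27025 genes with an entry. Rela had none, and Nfkb1, Relb and Nfkbiz had no entry. A match is a description of the letters and not evidence of binding.

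Total counts per library ranged from 38583802 to 300089909 with a median of 72766895. Myh4, a fast myosin, had a median of 40300 CPM (read counts scaled by library size) in gastrocnemius and 109 CPM in soleus, and Myh7, the slow myosin, had medians of 413 and 6210 CPM there, as the muscle labels state. Xist, the transcript of the silenced X chromosome, was at 560 to 2490 CPM in female libraries and at 0.0 to 154 CPM in male libraries. The ranges of the labelled sexes did not overlap, and no other gene was used to check sex. Altogether 9 libraries stood apart, 8 of them diaphragms, with hepatocyte markers summing to over 2000 CPM, B and plasma cell markers to over 500 CPM, or a total above 200000000. A further set of 11 libraries, 7 diaphragms and 4 gastrocnemius libraries, had counts that depended on the GC content of the transcripts. Male diaphragm replicate 6 at 27 months was in both sets. Only some of the calls that changed when either set was left out are given with and without it where the gene is described. Larger changes in the count of called members are given at the end.

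Levels of the members were compared per kilobase of exon. Nfkbia, the IκB protein that is rapidly destroyed and resynthesised, was the highest member in every muscle and sex, with medians from 6.04 CPM per kb in male gastrocnemius to 8.46 CPM per kb in male diaphragm. Rela, the main activating subunit, was second everywhere, at 3.90 CPM per kb in male gastrocnemius and 4.32 CPM per kb in male diaphragm. Nfkbie, an inhibitor that is inducible by NF-κB, was the lowest member in limb muscles, with a median of 0.312 CPM per kb in female gastrocnemius, whereas Rel, the lymphoid subunit, was the lowest in diaphragm at 0.743 CPM per kb in males. Neighbours in this order, such as Relb, Rel and Tnfaip3, had ranges that overlapped widely.

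**Figure D1:**
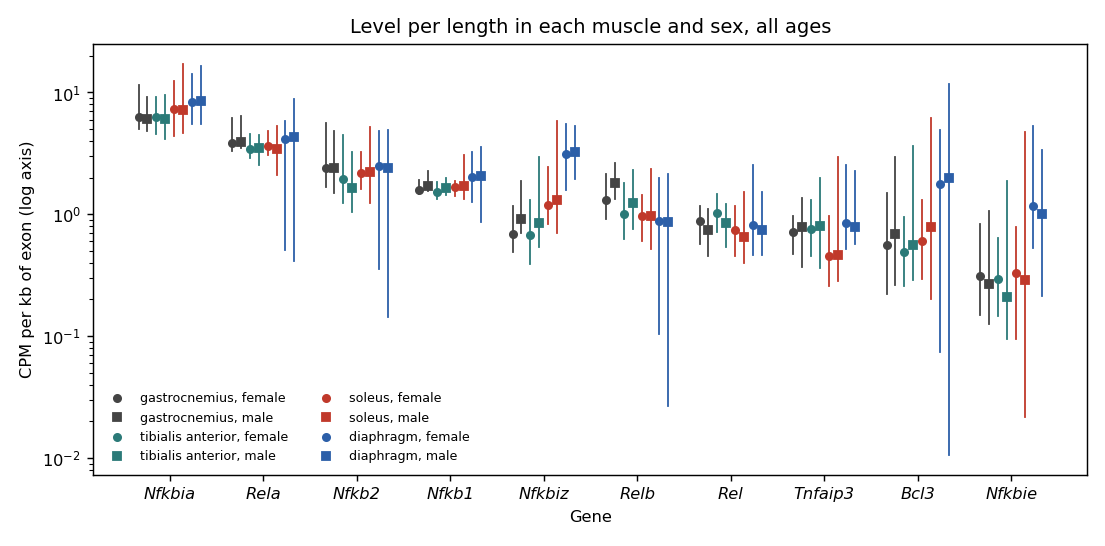
Level of each member in each muscle and sex over all ages, in CPM per kilobase of exon on a log axis. Points are medians (circles for females, squares for males, colours for muscles) and vertical lines run from the lowest to the highest library. Nfkbia and Rela lie on top in every muscle, and the long lines below Rela, Nfkb2, Relb and Bcl3 in diaphragm reach down to libraries whose counts depended on GC content.

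Members also differed in how much they varied between libraries. The coefficient of variation over all ages was lowest for Nfkb1, which encodes the precursor of the common DNA-binding subunit, at 5.14% in female gastrocnemius. It was 34.4% for Bcl3 in the same muscle and 67.8% in male gastrocnemius. Nfkb1 lies at chr3:135584655-135691547 on the minus strand (GENCODE M21, GRCm38).

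Nfkb2, the precursor of the non-canonical subunit (chr19:46304320-46312385, plus strand), rose with age in gastrocnemius and tibialis anterior of both sexes. In female gastrocnemius the lowest, median and highest libraries had 7.68, 8.61 and 9.97 CPM at 6 months and 14.7, 18.1 and 25.8 CPM at 27 months. In male gastrocnemius they had 6.91, 8.12 and 9.24 CPM at 6 months and 12.4, 15.8 and 22.2 CPM at 27 months. All 10 libraries at 27 months were above all 8 at 6 months in both sexes. The change was 2.18-fold in females (log2 fold change 1.12, SE 0.12, adjusted p = 1.87e-10) and 2.02-fold in males (log2 fold change 1.02, SE 0.12, adjusted p = 5.38e-09), by the quasi-likelihood test of edgeR with p-values adjusted over all genes by the Benjamini-Hochberg method. A gene is said to be called, to rise or to fall where this adjusted p was below 0.05, with no limit on the fold.

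Tibialis anterior gave the same picture at lower levels of Nfkb2. Female libraries had 5.91, 7.44 and 8.61 CPM at 6 months and 10.5, 13.2 and 20.4 CPM at 27 months (log2 fold change 0.96, SE 0.14, adjusted p = 1.44e-06 by edgeR). Male libraries had 4.78, 5.73 and 6.91 CPM at 6 months and 7.0, 12.0 and 14.1 CPM at 27 months (log2 fold change 0.99, SE 0.14, adjusted p = 1.51e-06 by edgeR). The groups again did not overlap. Among all genes tested, all 27-month libraries were above all 6-month libraries in 1.82% of genes in female gastrocnemius, 1.60% in male gastrocnemius, 1.18% in female tibialis anterior and 0.683% in male tibialis anterior. The shares were 1.07% and 0.228% in female and male soleus and 0.0803% and 0.33% in female and male diaphragm, where no member met this.

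In soleus, the slow hindlimb muscle, Nfkb2 showed no such difference. The lowest, median and highest female libraries had 7.52, 9.75 and 11.9 CPM at 6 months and 8.33, 10.4 and 14.8 CPM at 27 months, and male libraries had 8.84, 10.3 and 11.3 CPM against 6.7, 9.92 and 15.0 CPM. The groups overlapped in both sexes. The 95% interval of the log2 fold change ran from -0.09 to 0.33 in females and from -0.31 to 0.28 in males.

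The difference between muscles was tested directly, as the change from 6 to 27 months in each muscle minus that in gastrocnemius. For Nfkb2 it was -1.0 on the log2 scale in female soleus (SE 0.26, adjusted p = 0.00852 by edgeR) and -1.02 in male soleus (SE 0.25, adjusted p = 0.020 by edgeR). These fits treated the muscles as independent samples. With the replicate number within each age as a block the differences in soleus were -0.98 in females (adjusted p = 0.0209) and -1.04 in males (adjusted p = 0.0147). These tests called 5.51% of all genes in females and 0.594% in males. In female diaphragm the difference was -0.89 (SE 0.26, adjusted p = 0.0289), where 3.20% of all genes were called, and it was not called when the replicate number was added to the fit as a block (-0.87). Male diaphragm (-0.44) and both tibialis anterior comparisons (-0.18 and -0.04) did not pass the test, with intervals from -0.94 to 0.05 in male diaphragm and from -0.54 to 0.46 in male tibialis anterior. These last fits called 3.44% of all genes in male diaphragm, 0.57% in female tibialis anterior and 0.0% in male tibialis anterior. No other member was called in these tests by edgeR.

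**Figure D2:**
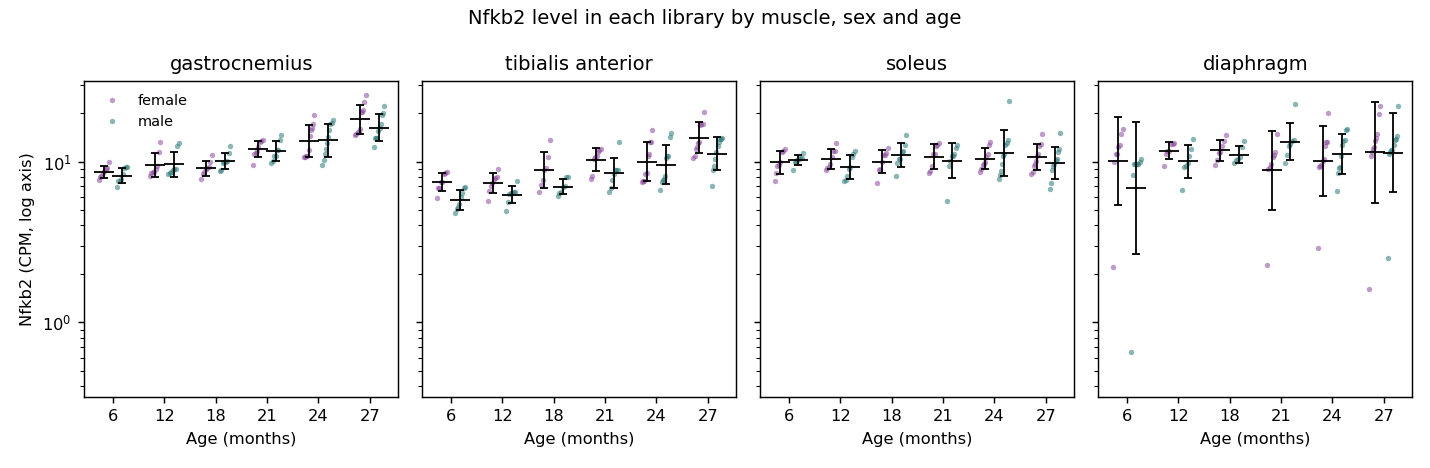
Nfkb2 in CPM (log axis) in each library by age in months, for the 4 muscles. Points are libraries, females in purple and males in teal, and black marks are the mean and SD of log2 CPM. In gastrocnemius and tibialis anterior the 27-month libraries lie above all 6-month libraries of the same sex, in soleus the ages overlap, and 6 diaphragm libraries lie between 0.653 and 2.91 CPM, far below the rest.

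The rise in Nfkb2 in the fast limb muscles was first called at 21 months. At 12 and 18 months none of the 80 member tests was called by edgeR, where at 12 months 0.579% of all genes were in female gastrocnemius, 0.527% in female tibialis anterior, 0.221% in female soleus and 0.0% in female diaphragm, and in males 1.08%, 0.338%, 0.117% and 0.0622%. At 18 months these shares were 9.6%, 4.53%, 5.68% and 0.222% in females and 2.99%, 1.93%, 0.489% and 0.199% in males. An unadjusted p below 0.05 was found in 5 tests at 12 months and 10 at 18 months, limma-voom called no member at these ages, and DESeq2 called 1, in male gastrocnemius at 12 months (1.59% of all genes). In female gastrocnemius the median of Nfkb2 was 9.02 CPM at 18 months, 12.0 CPM at 21 months, 13.2 CPM at 24 months and 18.1 CPM at 27 months. Log2 fold changes against 6 months were 0.49, 0.68 and 1.12 at 21, 24 and 27 months. Male gastrocnemius gave 0.51, 0.76 and 1.02. The later ages share the same 6-month libraries. Against log2 age over all ages, Nfkb2 rose by 0.45 and 0.43 per doubling of age in female and male gastrocnemius and by 0.39 and 0.45 in tibialis anterior (SE 0.05 to 0.07), with all 4 slopes called.

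The level of Nfkb2 relative to Nfkb1, its closest relative in the family, was higher at 27 months in gastrocnemius and tibialis anterior. The ratio of Nfkb2 to Nfkb1 per kilobase had a median of 1.14 at 6 months and 2.43 at 27 months in female gastrocnemius, and of 0.984 and 1.93 in male gastrocnemius. It was 0.824 and 1.56 in male tibialis anterior, where all 27-month ratios (1.02 to 1.89) were above all 6-month ratios (0.617 to 0.983). In male soleus the median was 1.35 at 6 months and 1.24 at 27 months. Nfkb1 itself had medians of 19.9 and 18.9 CPM in female gastrocnemius at these ages. Its only called change at 27 months was in female tibialis anterior, where it fell by 0.12 on the log2 scale (SE 0.04, adjusted p = 0.0367 by edgeR).

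Relb, the partner of the processed Nfkb2 product (chr7:19606217-19629438, minus strand), rose in the same muscles. The lowest, median and highest libraries of female gastrocnemius had 3.56, 4.50 and 5.08 CPM at 6 months and 5.35, 7.13 and 8.32 CPM at 27 months. Those of male gastrocnemius had 5.15, 5.70 and 6.28 CPM at 6 months and 7.38, 8.45 and 9.88 CPM at 27 months, and the ages did not overlap in either sex. The log2 fold changes were 0.64 in females (SE 0.09) and 0.59 in males (SE 0.08). They were 0.58 and 0.75 in female and male tibialis anterior, where the ages overlapped, and all 4 were called (adjusted p = 0.00183 or lower, edgeR). In soleus Relb changed by 0.15 in females and 0.12 in males and was not called.

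Of the other Rel-family genes, Rela (chr19:5637483-5648130, plus strand) differed little. Its medians in female gastrocnemius were 11.8 CPM at 6 months and 12.8 CPM at 27 months, a log2 fold change of 0.19 (SE 0.05, adjusted p = 0.00595 by edgeR). Without the libraries whose counts depended on GC content it was 0.12 and still called, and the male change went from 0.20 (not called) to 0.21 (called, adjusted p = 0.032). The 8 estimates at 27 months lay between 0.11 and 0.27. That in male diaphragm was -0.13 with a term for the run of sample numbers, which there largely followed age. In male soleus Rela was higher at 21 months (0.45, SE 0.11, adjusted p = 0.0243) and 24 months (0.40, SE 0.11, adjusted p = 0.0188), and not at 27 months (0.12). In male diaphragm at 21 months Rela was not called with all libraries. It was called without those that depended on GC content (0.44, SE 0.13, adjusted p = 0.025 by edgeR). Without the libraries that stood apart it was 0.34 and not called (adjusted p = 0.532 by edgeR). With the run term it was 0.69 and not called.

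Rel (chr11:23736847-23770970, minus strand) fell in female and rose in male gastrocnemius at 21 and 24 months. In female gastrocnemius its lowest, median and highest libraries had 6.45, 7.37 and 8.18 CPM at 6 months and 5.24, 5.67 and 6.23 CPM at 21 months. In male gastrocnemius they had 3.91, 4.60 and 6.31 CPM at 6 months and 5.70, 6.55 and 8.23 CPM at 21 months. The 21-month libraries were thus below all 6-month libraries in females, and in males the groups overlapped slightly. Rel fell by 0.35 on the log2 scale in females at 21 and 24 months and rose by 0.47 and 0.37 in males, and the change at 27 months was not called in either (-0.08 and 0.17). Without the libraries whose counts depended on GC content the male change at 27 months was 0.23 and was called (adjusted p = 0.0478 by edgeR). In male tibialis anterior Rel rose at 21, 24 and 27 months (0.43, 0.40 and 0.36, adjusted p = 0.00653 or lower, edgeR). The last was its only call at 27 months with all libraries. In male diaphragm at 21 months Rel was not called with all libraries. It was called without those that depended on GC content (0.51, adjusted p = 0.0431 by edgeR) and with the run term (0.55). Without the libraries that stood apart it was 0.27 and not called (adjusted p = 0.528 by edgeR). The slope per doubling of age was higher in males than in females by 0.28 in gastrocnemius (SE 0.06, adjusted p = 0.000583) and by 0.24 in tibialis anterior (SE 0.06, adjusted p = 0.00474). This test of slopes was chosen after the values were seen and called 5.54% of all genes in gastrocnemius, 5.03% in tibialis anterior, 10.6% in soleus and 0.241% in diaphragm. Over all ages Rel was lower in males in gastrocnemius (-0.26), soleus (-0.18) and tibialis anterior (-0.24).

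**Figure D3:**
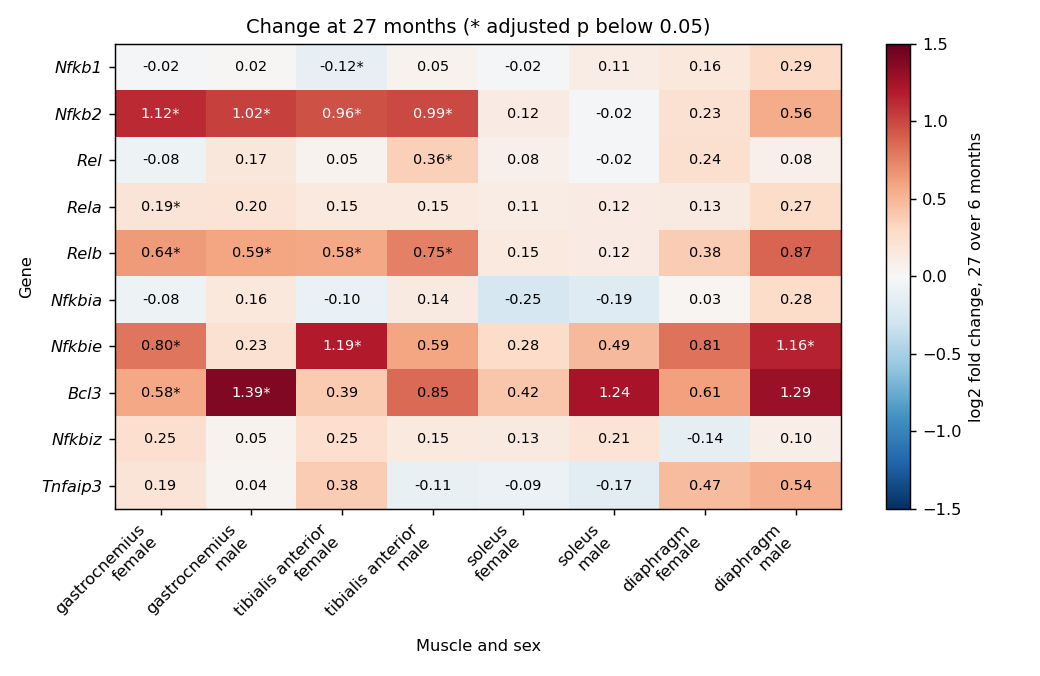
Log2 fold change of each member at 27 over 6 months (colour and number) in each muscle and sex, with an asterisk where the adjusted p of edgeR is below 0.05. The rows of Nfkb2 and Relb are called in gastrocnemius and tibialis anterior of both sexes and in neither soleus, and Nfkbia is called nowhere.

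Counted over the family at 27 months, 5 members were called in female gastrocnemius (29.3% of all genes were), 4 in female tibialis anterior (21.9%), 3 in male gastrocnemius (23.3%), 3 in male tibialis anterior (17.8%) and 1 in male diaphragm (8.65%). By edgeR none was called in female diaphragm (1.61%), female soleus (18.8%) or male soleus (2.85%), where 1, 0 and 1 members had an unadjusted p below 0.05. DESeq2 and limma-voom also called none in female diaphragm and female soleus, and DESeq2 called Bcl3 in male soleus (4.05% of all genes). In all, 15 of the 80 tests at 27 months were called higher and 1 lower. The median log2 fold change of the members was between 0.11 and 0.42, against -0.03 to 0.03 for all genes.

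Nfkbie (chr17:45555703-45563169, plus strand) rose among the inhibitors. In female gastrocnemius its lowest, median and highest libraries had 0.450, 0.837 and 0.971 CPM at 6 months and 0.979, 1.24 and 2.51 CPM at 27 months (log2 fold change 0.80, SE 0.18, adjusted p = 0.000513 by edgeR). In female tibialis anterior they had 0.445, 0.575 and 0.717 CPM and 0.765, 1.23 and 1.94 CPM (log2 fold change 1.19, SE 0.22, adjusted p = 8.12e-05 by edgeR). The ages did not overlap in either muscle. In males the estimates at 27 months were 0.23 in gastrocnemius and 0.59 in tibialis anterior, neither called. The sex difference in this change was not called in any muscle.

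Nfkbia (chr12:55489410-55492647, minus strand), the highest member, was not called at any age in any muscle or sex by edgeR. Its medians were 9.31 CPM at 6 months and 10.6 CPM at 27 months in male gastrocnemius, and 12.5 and 11.6 CPM in male soleus. The log2 fold changes at 27 months were between -0.25 and 0.28. Tnfaip3 (chr10:19000910-19015657, minus strand), which encodes the deubiquitinase A20, was called only once, in male diaphragm at 21 months (0.76, SE 0.22, adjusted p = 0.0239), and not there without the libraries that stood apart (0.30, adjusted p = 0.563). Nfkbiz (chr16:55811375-55838899, minus strand), a nuclear IκB protein, was called in female gastrocnemius at 21 months (0.44) and 24 months (0.43) and in male tibialis anterior at 24 months (0.57). The last group included replicate 8, with 14.8 CPM of Nfkbiz against 3.53 to 7.13 CPM in the others.

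Bcl3 (chr7:19808462-19822770, minus strand), a nuclear IκB protein that partners the Nfkb1 and Nfkb2 products, rose mainly in males. In male gastrocnemius the lowest, median and highest libraries had 0.658, 1.08 and 1.54 CPM at 6 months and 0.946, 2.11 and 7.34 CPM at 27 months. In male soleus they had 0.685, 1.16 and 1.25 CPM at 6 months and 1.23, 2.0 and 6.24 CPM at 27 months. The groups overlapped, and the older ones were spread over a wider range. The change at 27 months was called in male gastrocnemius (2.63-fold, log2 fold change 1.39, SE 0.33, adjusted p = 0.00141 by edgeR) and in female gastrocnemius (1.5-fold, log2 fold change 0.58, SE 0.20, adjusted p = 0.021 by edgeR). Without the libraries whose counts depended on GC content the female change was 0.45 and was not called (28.8% of all genes were).

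Higher Bcl3 was already seen in males at 21 months, when male gastrocnemius had 1.01, 2.53 and 5.98 CPM (log2 fold change 1.52, SE 0.35, adjusted p = 0.00249 by edgeR). At 24 months it was called in male gastrocnemius (1.36), soleus (1.95) and tibialis anterior (1.45). Over all ages the slope per doubling of age was called in all 4 male muscles, at 0.73 in gastrocnemius and diaphragm, 0.75 in soleus and 0.61 in tibialis anterior. In females the slopes were 0.05 to 0.13 and none was called. For soleus and diaphragm of males the slope was not called with limma-voom (0.56 and 0.68).

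The male slope of Bcl3 minus the female slope was 0.61 in gastrocnemius (SE 0.16, adjusted p = 0.00904), 0.66 in soleus (SE 0.18, adjusted p = 0.0103) and 0.57 in tibialis anterior (SE 0.16, adjusted p = 0.0248), by edgeR. It was 0.63 in diaphragm (SE 0.27, adjusted p = 0.324). With limma-voom none of these differences was called (adjusted p = 0.0592, 0.127 and 0.0823 in the limb muscles). The sex by age test at 27 against 6 months called no member by edgeR in any muscle, where 1.6% of all genes were called in gastrocnemius, 1.73% in tibialis anterior, 0.855% in soleus and 0.0% in diaphragm, and 2 members in gastrocnemius and 2 in tibialis anterior had an unadjusted p below 0.05.

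**Figure D4:**
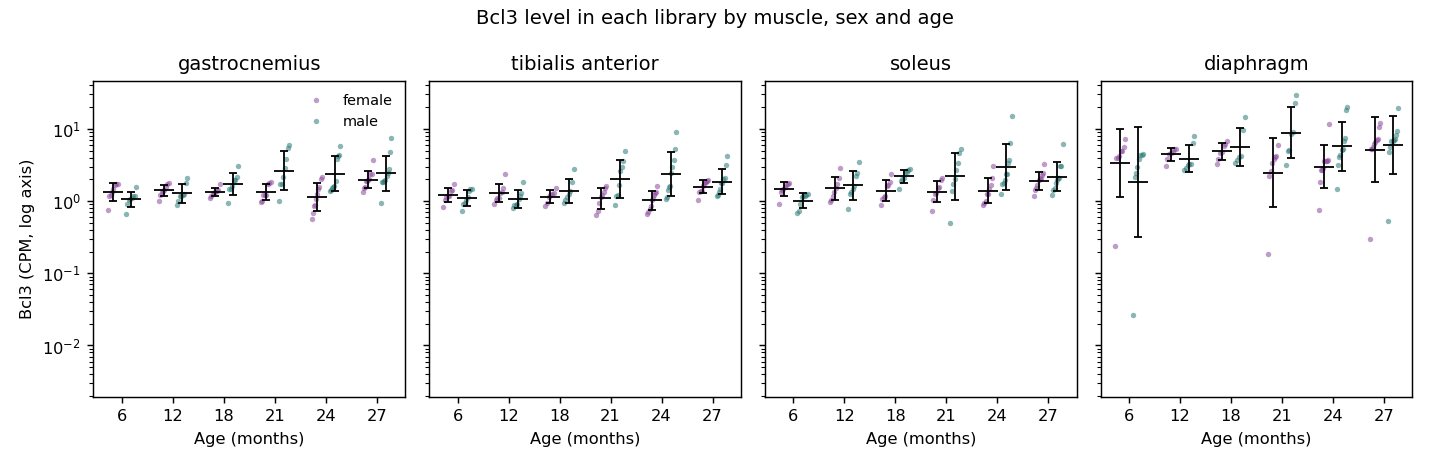
Bcl3 in CPM (log axis) in each library by age in months, for the 4 muscles. Points are libraries, females in purple and males in teal, and black marks are the mean and SD of log2 CPM. From 21 months the male limb libraries spread upwards, with a male median of 2.53 CPM at 21 months in gastrocnemius against 1.08 CPM at 6 months, while the female median in gastrocnemius is 1.16 to 1.41 CPM up to 24 months and 1.94 CPM at 27 months.

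Over the age trend, 5 members were called in female gastrocnemius (32.7% of all genes), 4 in female tibialis anterior (27.8%), 4 in male gastrocnemius (27.8%), 6 in male tibialis anterior (20.5%), 4 in male diaphragm (10.7%) and 1 in male soleus (5.71%). None was called in female diaphragm (5.43%) or female soleus (30.0%) by edgeR, limma-voom or DESeq2, and none had an unadjusted p below 0.05 there. Of the 24 calls, 22 were higher with age. At 21 months 16 of the 80 member tests were called, with 5 in female gastrocnemius (15.8%), 3 in female tibialis anterior (10.7%), 3 in male gastrocnemius (10.2%), 2 in male tibialis anterior (6.78%), 2 in male diaphragm (10.7%) and 1 in male soleus (1.37%), and none in female soleus (22.7%) or female diaphragm (1.53%). At 24 months 22 were called, with 5 in female gastrocnemius (19.2%), 4 in female tibialis anterior (16.3%), 4 in male gastrocnemius (14.6%), 6 in male tibialis anterior (15.4%) and 3 in male soleus (4.46%), and none in female soleus (23.3%), female diaphragm (3.33%) or male diaphragm (1.27%) by edgeR. Of the groups without a call, an unadjusted p below 0.05 was found for 0 members in female soleus and 2 in female diaphragm at 21 months. At 24 months it was found for 3 in female soleus, 0 in female diaphragm and 3 in male diaphragm. DESeq2 called 1 member in female soleus at 24 months and limma-voom none there, and neither called a member in the other groups without an edgeR call.

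The male limb libraries numbered 8 at 24 months stood out, which was noticed after their values were seen. In soleus this library had 14.4 CPM of Nfkbie, against 0.546 to 1.69 CPM in the other 9 libraries, and 21.5 CPM of Tnfaip3, against 2.19 to 4.25 CPM. Its Bcl3 level was 15.2 CPM, above the 1.24 to 6.39 CPM of the others. In tibialis anterior it had 5.74 CPM of Nfkbie and 14.3 CPM of Tnfaip3, above 0.560 to 1.53 CPM and 4.85 to 8.44 CPM. The summed level of 15 macrophage markers was 1090 CPM in this soleus library and 99.3 to 187 CPM in the others, and its part in the result was not tested. Without these libraries male soleus had 1 called member at 24 months in place of 3, with Bcl3 called (1.41), Nfkbie not (0.54) and Rela not (0.35), and 2.6% of all genes were called.

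Some marker genes of other cells were also called higher at 27 months. In female gastrocnemius 4 of 15 macrophage markers were called higher at 27 months, with a summed level of 92.7 to 133 CPM at 6 months and 101 to 224 CPM at 27 months, and 6 of 7 slow fibre markers were. In female tibialis anterior 8 of 15 macrophage markers were called higher (43.9 to 83.7 CPM and 63.5 to 171 CPM). In male gastrocnemius 2 of 15 were (92.9 to 136 CPM and 116 to 339 CPM), with 4 of 7 slow fibre markers. In male tibialis anterior none of the 15 macrophage and 7 slow fibre markers was called by edgeR, with 0 and 2 at an unadjusted p below 0.05. The macrophage sums were 61.1 to 112 CPM at 6 months and 45.3 to 131 CPM at 27 months there. Of all genes, 14.6% were called higher in female gastrocnemius, 12.1% in female tibialis anterior, 10.6% in male gastrocnemius and 9.97% in male tibialis anterior. The 2 of 15 macrophage markers in male gastrocnemius were thus near the share of all genes. No macrophage marker was at 0 in all libraries of a fit. The part of these cells in the changes of the members was not tested in any muscle.

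In diaphragm the estimates depended on which libraries were used. In males Nfkbie was the only member called at 27 months, with 0.653, 2.31 and 3.95 CPM at 6 months and 2.28, 4.28 and 8.78 CPM at 27 months (log2 fold change 1.16, SE 0.32, adjusted p = 0.0218 by edgeR). Without the libraries that stood apart 6 members were called (16.7% of all genes), among them Bcl3 (1.43), Relb (1.00) and Nfkb2 (0.68). Of the 6-month and 27-month libraries, this left out only replicate 6 at 27 months. That library also depended on GC content and had 0.534 CPM of Bcl3. Replicate 2 at 6 months, with 0.0261 CPM, depended on GC content too and was kept. Without all libraries that depended on GC content 4 members were called. With a term for the run of sample numbers in the labels, none was called (0.429% of all genes). These runs are not stated to be batches. With this term Bcl3 (-0.10) and Nfkb2 (-0.01) were near 0. Run 2 held 6 libraries of 6 months and only replicate 6 of 27 months, and run 1 held 2 and 6. Age and run can thus barely be told apart here. Within run 1 the log2 differences were 0.56 for Bcl3 and 0.29 for Nfkb2. Within run 2, against replicate 6 alone, they were -1.4 and -1.27. At 21 months Bcl3 was called in male diaphragm (1.95, SE 0.55, adjusted p = 0.0206), but not without the libraries that stood apart (0.99, with 0.59% of all genes called). In the male diaphragm 9 of 10 tested T cell markers, 5 of 15 macrophage markers and 4 of 8 B and plasma cell markers were called higher at 27 months (5.13% of all genes were). The T cell markers had sums of 1.25 to 2.60 CPM at 6 months and 1.13 to 38.1 CPM at 27 months. The part of these cells was not tested.

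The diaphragm libraries whose counts depended on GC content were low in the members with GC-rich transcripts. The GC slope of a library is the change in its log2 CPM, relative to the median of its muscle, per 10 percentage points of transcript GC content over 8756 genes. In 7 diaphragm libraries it was between -2.66 and -0.239, while outside the 11 libraries it was between -0.142 and 0.182 in the series. Bcl3 had a GC content of 62.6%, at percentile 99.3 of all genes, Nfkb2 and Rela had 59.4% (percentiles 95.7 and 95.6), and Rel had 42.5% (percentile 15.2). In these 7 libraries Nfkb2 lay -0.759 to -3.378 log2 units from the mean of its group and Bcl3 lay -1.984 to -5.842 from it. In the other 91 diaphragm libraries these deviations were -0.594 to 0.989 and -1.481 to 1.94. What made these libraries differ was not tested. The library with the lowest slope, male diaphragm replicate 2 at 6 months, had 0.0261 CPM of Bcl3, a count of 1.

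**Figure D5:**
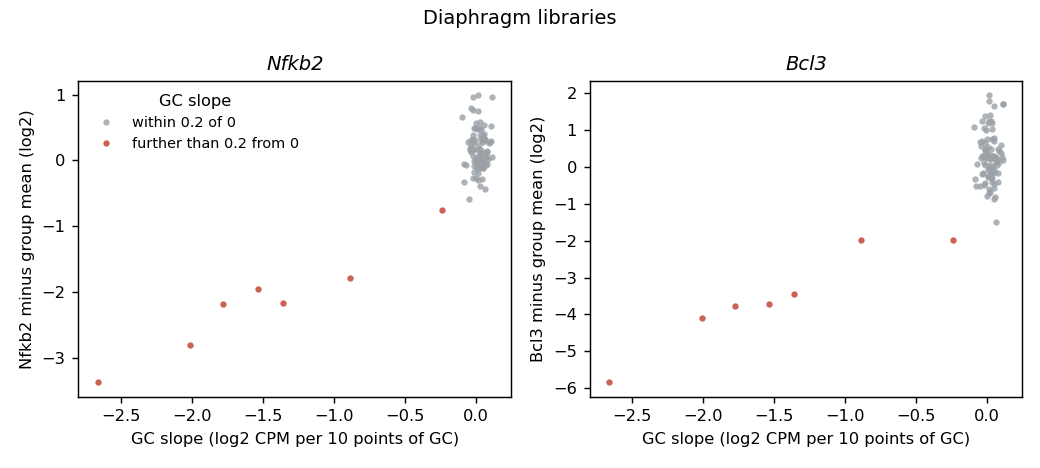
Nfkb2 and Bcl3 in each diaphragm library, as log2 CPM minus the group mean, against the GC slope of the library (log2 CPM per 10 percentage points of transcript GC). Red points are the 7 libraries with a slope further than 0.2 from 0. They lie below the group mean for both genes, down to -3.378 for Nfkb2 and -5.842 for Bcl3.

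Over all ages, 7 members in females and 6 in males differed between diaphragm and gastrocnemius, 6 and 6 between soleus and gastrocnemius, and 4 and 4 between tibialis anterior and gastrocnemius. These counts were at or below the shares of all genes called in the same fits, which are given with each muscle. Compared with gastrocnemius, diaphragm had more Nfkbiz (log2 difference 2.23 in females and 1.69 in males), Bcl3 (1.62 and 1.55), and less Relb (-0.59 and -1.11). Nfkbie was also higher there, by 2.15 in females, and in males its medians were 0.817 CPM in gastrocnemius and 3.07 CPM in diaphragm. The medians of Nfkbiz were 3.47 CPM in female gastrocnemius and 15.8 CPM in female diaphragm, and its lowest diaphragm library (7.91 CPM) was above its highest gastrocnemius library (5.89 CPM). Diaphragm comparisons called 86.6% of all genes in females and 85.3% in males, so most genes were called there. With DESeq2's size factors the median of all genes shifted by 0.18 in male diaphragm, and Nfkb2 went from -0.12 to 0.05 there.

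Soleus had more Nfkbiz (0.85 in females and 0.63 in males) and less Tnfaip3 (-0.58 and -0.66) and Relb (-0.48 and -0.86) than gastrocnemius, where 74.6% and 73.0% of all genes were called. Tibialis anterior had less Nfkb2 (-0.26 and -0.47) and more Rel (0.22 and 0.27), where 57.5% and 55.1% were called. The medians of Tnfaip3 were 5.19 CPM in female gastrocnemius and 3.27 CPM in female soleus, with overlapping ranges.

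The sexes differed in 7 members in gastrocnemius (58.3% of all genes were called), 7 in tibialis anterior (47.8%) and 3 in soleus (30.9%). By edgeR none was called in diaphragm (18.9%), with 3 at an unadjusted p below 0.05, and limma-voom called none there. Males had more Bcl3 in gastrocnemius (0.44, SE 0.11), soleus (0.48, SE 0.13) and tibialis anterior (0.47, SE 0.12), and more Nfkbiz in the same muscles (0.46, 0.26 and 0.39). Relb was higher in males in gastrocnemius (0.42) and tibialis anterior (0.19). Nfkbie was lower in males in gastrocnemius (-0.21) and tibialis anterior (-0.31). In soleus limma-voom called 1 member in place of 3.

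Other genes of the pathway were counted from lists by role. Among 24 NF-κB target genes, 7 of 19 tested were called higher and 1 lower at 27 months in female gastrocnemius, 7 and 2 of 18 in female tibialis anterior, 6 and 1 of 19 in male gastrocnemius, 5 and 1 of 19 in male tibialis anterior and 8 and 0 of 22 in male diaphragm. The shares of all genes called higher in these fits were 14.6%, 12.1%, 10.6%, 9.97% and 5.13%. Calls in male diaphragm depended on which libraries were used, as given above, and genes of the lists were counted only with all libraries. In female diaphragm, where 0.624% of all genes were called higher, none of 21 targets was called by edgeR and 5 had an unadjusted p below 0.05. In soleus none of 20 was called higher by edgeR in either sex and 1 was called lower in females, with 5 and 7 at an unadjusted p below 0.05 in females and males. The median log2 fold change of these targets was 0.38 in female gastrocnemius, 0.56 in female tibialis anterior and 0.15 in female soleus, against 0.02, 0.00 and -0.03 for all genes.

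The chemokine gene Cxcl10 rose by 3.54 on the log2 scale in female gastrocnemius (SE 0.42), 3.92 in female tibialis anterior (SE 0.53), 2.54 in male gastrocnemius (SE 0.46) and 3.21 in male tibialis anterior (SE 0.80). Icam1, an adhesion molecule, and Birc3, an inhibitor of apoptosis that also acts in the pathway, were called higher in 5 of 8 fits each. Birc3 rose by 0.44 in gastrocnemius of both sexes, 0.72 and 0.48 in female and male tibialis anterior and 0.53 in male diaphragm. Ier3, an early response gene, was called higher in 4 fits.

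Receptors included Tlr4, the receptor for bacterial lipopolysaccharide, which was called higher in 4 fits (0.48 to 0.77), and Tnfrsf12a, the receptor for TWEAK, which rose by 1.17 in female and 0.68 in male gastrocnemius. In total 5 of 12 tested receptors were called higher in female gastrocnemius (14.6% of all genes were), 3 of 12 in female tibialis anterior (12.1%), 3 of 12 in male gastrocnemius (10.6%), 1 of 12 in male tibialis anterior (9.97%), 3 of 13 in male diaphragm (5.13%) and 1 of 13 in female diaphragm (0.624%). None of 12 was called in soleus of either sex by edgeR, with 1 at an unadjusted p below 0.05 in each. Its ligand gene Tnfsf12 fell by 0.26 in female and 0.46 in male tibialis anterior. Of the ligand genes, Tnf (1.30), Il1a (3.41) and Ltb (1.99) were called higher in male diaphragm, where 5.13% of all genes were. The T and B cell markers named above were called there as well. Il1a passed the low-count filter in only 3 of the 8 fits and Ltb in only 2. Several other ligand genes of the list were called in no fit. Calls in male diaphragm depended on which libraries were used.

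Among adaptors and kinases, Map3k14, which encodes the kinase of the non-canonical route, rose by 0.30 in female gastrocnemius (SE 0.10), 0.55 in male gastrocnemius (SE 0.20) and 0.65 in male tibialis anterior (SE 0.23). Tab2, an adaptor of the canonical route, fell by 0.31 and 0.40 in female and male gastrocnemius and by 0.22 and 0.17 in tibialis anterior. Traf3, which restrains Map3k14, was called higher in female gastrocnemius (0.29) and female soleus (0.53) and lower in female tibialis anterior (-0.19). In the whole list 5 of 22 genes were called higher and 2 lower in female gastrocnemius, and 2 and 3 in male tibialis anterior, where 29.3% and 17.8% of all genes were called in either direction, so that these shares were near those of all genes. Of 11 further inhibitors, 5 were called higher in female gastrocnemius (14.6% of all genes) and 6 in male gastrocnemius (10.6%) and none lower. The deubiquitinase gene Cyld was called higher in 5 of 8 fits (0.19 to 0.45). Otulin and Zc3h12a, also of this list, were called only in gastrocnemius, in both sexes. Counts of the adaptors and inhibitors in the other fits are not given here.

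The pair of members most like each other, after removing group means and leaving out the 11 libraries that depended on GC content, were Nfkb2 and Relb (Pearson r = 0.626 over 396 libraries). Genes whose residuals were most like those of Nfkb2 were then Cd82 (0.621), Tubb6 (0.605) and Arf6 (0.584). For Bcl3 they were Actb (0.759), Litaf (0.748) and Il4ra (0.730), and for Nfkbia they were Ddit4 (0.640), Zfp36 (0.639) and S1pr1 (0.575). Birc3 was the most similar gene for both Nfkbie (0.652) and Tnfaip3 (0.635). Over all 407 libraries the order was led by other genes for Nfkb2 (Tln1, 0.847) and Bcl3 (Sbno2, 0.853), with 0.972 and 0.966 within diaphragm. These values share library and depth between genes and carry no test.

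Some counts may include reads of neighbouring genes, since the sources used here do not state whether counting was by strand. Bcl3 overlaps the annotated genes Gm16174 and Gm16175 on the opposite strand and Nfkb1 overlaps Gm43430 on its own strand, and levels of these were not analysed here. The 3′ end of Nfkb2 overlaps Psd on the opposite strand, which had medians of 0.0435 to 0.344 CPM in the 4 muscles.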

How the data were processed

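Total RNA of 407 muscles was sequenced by the authors as strand-specific, ribosomal-RNA-depleted paired-end libraries, aligned to mm10 and counted per gene of an in-house RefSeq-based model in ArrayStudio. The deposited values are raw read counts per gene, and the sources used here do not state whether counting was by strand. Samples were grouped by the sex, muscle and age in the labels. Of the 25091 rows, only the one with the highest total was kept where a symbol had several, which left out 633.

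Counts were scaled by TMM and filtered with filterByExpr in edgeR 4.0.16 (R 4.3.3). A quasi-likelihood model was fitted within each sex of each muscle, each older age was set against 6 months, and p-values were adjusted over all genes (Benjamini-Hochberg, threshold 0.05). Further fits tested the slope on log2 age, sex, muscle against gastrocnemius, and the differences of age changes between sexes or muscles. CPM values are counts scaled by library size, log2 CPM used a prior count of 0.5, and exon lengths for levels per kilobase came from the reference annotation. Alternatives were limma-voom (limma 3.58.1), DESeq2 1.42.0, its size factors, no filter, a replicate block, runs of sample numbers, stricter thresholds and leaving out libraries. In counts simulated for female gastrocnemius (15290 genes), 86% of genes changed 1.5-fold and 85% of those changed 2-fold were recovered. In those for male soleus (15202 genes), 56% and 74% were, and in those for female diaphragm (16059 genes), 37% and 63% were.

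The members and lists were chosen with earlier results of these data known. The text names all members, up to 4 genes of each pathway list (those called at 27 months in the most fits, ties by mean size), the genes most like each member and Myh4, Myh7 and Alb as tissue checks. Other genes and replicate 8 of male mice at 24 months were named after their values were seen. Per the study, libraries of a muscle came from as many animals, so replicates within a group were taken as separate mice. The labels do not say which muscles share a mouse. For male diaphragm at 21 months and male tibialis anterior at 18 months the study lists other numbers of samples than the labels. The labels give 7 libraries in each of these groups and were used here.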

Additional observations from a re-analysis of the deposited data

Results flagged for a closer look

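A library far from the others of its group was found in 62 of the 320 groups of member, muscle, sex and age that were checked at 6, 21, 24 and 27 months, where chance gives about 1 in 20. No explanation was tested.

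Many of these values came from 6 diaphragms whose counts depended on GC content. Female diaphragm replicate 2 at 6 months was lowest in Nfkb1 (15.1 CPM), Nfkb2 (2.2 CPM), Rela (1.85 CPM), Relb (0.402 CPM) and Bcl3 (0.239 CPM). Female replicate 0 at 21 months was lowest in Nfkb2 (2.26 CPM), Rela (2.45 CPM), Relb (0.688 CPM) and Bcl3 (0.183 CPM). Female replicate 3 at 24 months was lowest in Nfkb2 (2.91 CPM), Rela (4.78 CPM) and Relb (0.716 CPM). Female replicate 0 at 27 months was lowest in Nfkb1 (17.0 CPM), Nfkb2 (1.62 CPM), Rela (1.56 CPM), Relb (0.401 CPM), Bcl3 (0.294 CPM) and Nfkbiz (7.91 CPM). Male diaphragm replicate 2 at 6 months was lowest in Nfkb1 (10.4 CPM), Nfkb2 (0.653 CPM), Rela (1.28 CPM), Relb (0.104 CPM), Nfkbie (0.653 CPM) and Bcl3 (0.0261 CPM). Male replicate 6 at 27 months was lowest in Nfkb1 (17.7 CPM), Nfkb2 (2.5 CPM), Rela (2.67 CPM), Bcl3 (0.534 CPM) and Nfkbiz (9.84 CPM).

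Other diaphragms were high. Female replicate 6 at 6 months had 14.6 CPM of Tnfaip3, female replicate 7 at 21 months had 7.64 CPM of Nfkbie, and female replicate 7 at 27 months had 19.1 CPM of Rel. Female replicate 1 at 24 months had 37.6 CPM of Nfkb1 and 12.8 CPM of Rel, and male replicate 4 at 21 months had 43.3 CPM of Nfkb1 and 22.7 CPM of Nfkb2.

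Among the limb muscles, replicate 8 of males at 24 months was highest in soleus for Nfkb2 (23.8 CPM), Relb (9.15 CPM), Nfkbia (27.9 CPM), Nfkbie (14.4 CPM) and Tnfaip3 (21.5 CPM). In tibialis anterior it was highest for Nfkbie (5.74 CPM), Nfkbiz (14.8 CPM) and Tnfaip3 (14.3 CPM), and in gastrocnemius for Nfkbie (3.24 CPM). Female gastrocnemius replicate 0 at 27 months was highest in Nfkb1 (22.9 CPM), Rela (18.9 CPM) and Nfkbie (2.51 CPM) and lowest in Rel (4.29 CPM). Other female gastrocnemius values that stood out were Bcl3 in replicate 5 at 6 months (0.741 CPM, lowest), Rela in replicate 4 at 21 months (13.0 CPM), Rel in replicate 7 at 24 months (7.02 CPM) and Nfkbia in replicate 2 at 27 months (11.6 CPM). In female soleus Bcl3 in replicate 0 at 6 months (0.896 CPM) and Nfkbie in replicate 7 at 27 months (0.401 CPM) were low. In female tibialis anterior Nfkbiz was low in replicate 7 at 21 months (2.58 CPM) and Nfkbia was high in replicate 2 at 27 months (12.6 CPM). In male gastrocnemius at 27 months Nfkb1 was high in replicate 1 (27.6 CPM) and Rela in replicate 8 (18.1 CPM). In male soleus Relb was low in replicate 4 at 6 months (2.08 CPM) and Nfkb2 in replicate 0 at 21 months (5.7 CPM), and in male tibialis anterior Nfkb2 was high in replicate 7 at 21 months (13.2 CPM).

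Some effects differed between groups by a test of the difference. The change of Nfkb2 from 6 to 27 months, minus that in gastrocnemius, was -1.0 in female soleus, -1.02 in male soleus and -0.89 in female diaphragm on the log2 scale. The last was not called with the replicate block (adjusted p = 0.0547 by edgeR). The male minus the female slope per doubling of age was 0.28 for Rel and 0.61 for Bcl3 in gastrocnemius, 0.66 for Bcl3 in soleus, and 0.24 for Rel, 0.11 for Nfkb1 and 0.57 for Bcl3 in tibialis anterior.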

How the results depend on the processing

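Of 680 member results, 488 were called under no setting. The cause of each change below was not tested. Depth did not bring any member below the filter, and the lowest member count in a library was 1.

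Counts of called members that moved by over 1.5 times are given here, first at 27 against 6 months. In male diaphragm the count was 1, and it was 0 with 24 and 27 months pooled against 6 and 12, with Bonferroni adjustment, limma-voom, the replicate block or the run term, 2 with DESeq2, 4 without the GC-slope libraries and 6 without the libraries that stood apart. Female gastrocnemius went from 5 to 2 with Bonferroni adjustment and 3 above 1.5-fold, and female tibialis anterior from 4 to 2 with either. Male gastrocnemius went from 3 to 5 with ages pooled, in run 1 alone or without GC-slope libraries. Male soleus went from 0 to 2 with ages pooled and to 1 with DESeq2, run 1 alone or without replicate 8 of 24 months. Male tibialis anterior went from 3 to 7 with ages pooled and to 5 with run 1 alone or without that replicate.

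At 21 months male diaphragm went from 2 to 1 with limma-voom, 0 with the replicate block, 8 with the run term, 7 without GC-slope libraries and 0 without the libraries that stood apart. Male gastrocnemius went from 3 to 6 and male tibialis anterior from 2 to 4 in run 1 alone, and male soleus from 1 to 2 with DESeq2, run 1 alone, the run term or without replicate 8. At 24 months female soleus went from 0 to 1 with DESeq2, its size factors or the replicate block and 2 in run 1 alone. Female tibialis anterior went from 4 to 2 and male tibialis anterior from 6 to 3 in run 1 alone. Male soleus went from 3 to 1 with limma-voom, the replicate block or without replicate 8 and to 0 in run 1 alone. Male gastrocnemius at 12 months went from 0 to 1 with DESeq2 or the run term, and at 18 months from 0 to 1 with run 1 alone, the run term or without GC-slope libraries.

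For the trend, male diaphragm went from 4 to 0 with limma-voom, the replicate block or the run term, and male soleus from 1 to 0 with limma-voom. The difference of the change in female diaphragm from gastrocnemius went from 1 to 0 with the replicate block. In place of the sex by age test, which called 0, the difference of slopes called 2 members in gastrocnemius, 1 in soleus and 3 in the tibialis anterior. These were 1, 0 and 2 with limma-voom, and 2, 1 and 3 with DESeq2's size factors, without GC-slope libraries, without those that stood apart or without replicate 8. The sex difference in diaphragm went from 0 to 1 without GC-slope libraries and that in soleus from 3 to 1 with limma-voom.

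Among the 192 member results called under at least 1 setting, direction reversed for some. It did so with the run term in male diaphragm at 27 months for Bcl3 (1.29 to -0.10) and Nfkb2 (0.56 to -0.01). The runs there largely followed age. In male tibialis anterior direction reversed for Nfkbiz (0.15) with the replicate block (-0.02) and in run 1 alone (-0.08). Against gastrocnemius it reversed for Rela in female diaphragm (0.04 to -0.06, limma-voom) and male diaphragm (0.01 to -0.01 with the replicate block and -0.03 with limma-voom), and for Nfkb2 in male diaphragm (-0.12 to 0.05 with DESeq2's size factors and 0.14 without GC-slope libraries).

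Samples with the same replicate number in different ages had a median correlation of deviations between -0.0528 and 0.127, so the numbers were not shown to pair them. Between limb muscles of one sex and age the medians were 0.324 (gastrocnemius and tibialis anterior), 0.237 (gastrocnemius and soleus) and 0.192 (soleus and tibialis anterior), a hint from the data that same-numbered limb muscles share a mouse. Not every pair was over 0.1 (96 of 102, 74 of 103 and 78 of 101 were). The replicate block left 169 of 192 member results on the same side of the threshold. Run 1 alone was not possible for diaphragm. Settings without GC-slope libraries, without libraries that stood apart or without replicate 8, other ages under the listed settings, and the difference of slopes were added after seeing the data.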
